A study of Mus musculus with 6 samples.

Results

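The genes of cholesterol biosynthesis and of its control by the transcription factor SREBP2 were examined in livers of L1-Tg and WT mice. They were 28 genes chosen by function, with no threshold on a measured value but with earlier results of these data known. Of these, 6 act in SREBP2 control, 6 in the mevalonate steps, 5 in the prenyl and squalene steps, 9 after lanosterol, and 2 carry or bind sterols. Their 41 probes, out of 55681 distinct probes, were found through the RefSeq accession that names each probe, and all 28 genes were among the 22356 genes tested. L1-Tg mice are hemizygous for Tg(APOE-NPC1L1)20Lqyu, a transgene in which the liver-specific ApoE promoter drives human NPC1L1 in hepatocytes. NPC1L1 takes cholesterol back up from bile, and mouse liver has little of its own. WT mice were littermates without the transgene. Both groups were males of 6 to 12 weeks on the C57BL/6J background after backcrossing, had free access to a control-fat diet (CFD), and carried no further allele or treatment. Each group had 3 arrays, and each array held 1 pool of liver RNA from several mice, so the spread described here is that between pools.

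Cells make cholesterol from acetyl-CoA by way of mevalonate, farnesyl diphosphate, squalene and lanosterol. When sterols are scarce in the endoplasmic reticulum, SCAP escorts SREBP2 to the Golgi, where a pair of proteases frees its active part, which then enters the nucleus and raises transcription of nearly every enzyme of the pathway. When sterols are plentiful, INSIG proteins hold SCAP back. In liver this system is known to respond to feeding, to cholesterol returning from the gut and to the time of day.

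SREBP2 binds sterol regulatory elements, usually beside sites for NF-Y and Sp1. Promoter windows of 300 bases, from 250 before to 50 after the transcription start, were taken from RefSeq (GRCm38.p6) and matched by symbol for 24 of the 28 genes, in 30 windows because some genes have several starts. Fdps, Fdft1, Sqle and Stard4 had no entry. The windows of 6 genes are shown because the array results below turn on them: Hmgcs1, Idi1 and Msmo1 as enzymes that moved together across arrays, Insig1 and Insig2 as inhibitors that deviated oppositely on 5 of 6 arrays, and Srebf2 as the factor itself. They are Hmgcs1 at chr13:119690101-119690400 (plus strand), Idi1 at chr13:8885356-8885655 (plus strand), Msmo1 at chr8:64733529-64733828 (minus strand), Insig1 at chr5:28071162-28071461 (plus strand), the first listed of 3 Insig2 starts at chr1:121332540-121332839 (minus strand), and Srebf2 at chr15:82147019-82147318 (plus strand). All run 5′ to 3′ on the gene's strand, and capitals mark TCACNCCAC, TCACNCCA, CCAAT and GGGCGG on either strand.
Hmgcs1: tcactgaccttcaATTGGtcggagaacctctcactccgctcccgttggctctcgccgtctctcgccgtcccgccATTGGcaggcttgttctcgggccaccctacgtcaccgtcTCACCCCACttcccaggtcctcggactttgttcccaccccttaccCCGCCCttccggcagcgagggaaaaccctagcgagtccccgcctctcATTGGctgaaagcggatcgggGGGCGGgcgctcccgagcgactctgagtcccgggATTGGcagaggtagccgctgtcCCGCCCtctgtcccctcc
Idi1: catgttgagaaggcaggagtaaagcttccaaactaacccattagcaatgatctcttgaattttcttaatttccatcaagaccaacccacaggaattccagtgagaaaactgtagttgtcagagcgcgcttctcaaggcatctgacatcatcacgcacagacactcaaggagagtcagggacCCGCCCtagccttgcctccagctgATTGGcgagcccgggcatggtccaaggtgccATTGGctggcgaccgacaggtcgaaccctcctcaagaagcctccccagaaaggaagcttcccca
Msmo1: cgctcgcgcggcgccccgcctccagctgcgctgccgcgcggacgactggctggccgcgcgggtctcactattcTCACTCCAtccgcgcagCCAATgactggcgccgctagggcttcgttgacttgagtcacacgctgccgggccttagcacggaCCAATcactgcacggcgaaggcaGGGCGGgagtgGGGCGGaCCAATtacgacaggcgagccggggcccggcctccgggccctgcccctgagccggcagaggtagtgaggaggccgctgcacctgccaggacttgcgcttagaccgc
Insig1: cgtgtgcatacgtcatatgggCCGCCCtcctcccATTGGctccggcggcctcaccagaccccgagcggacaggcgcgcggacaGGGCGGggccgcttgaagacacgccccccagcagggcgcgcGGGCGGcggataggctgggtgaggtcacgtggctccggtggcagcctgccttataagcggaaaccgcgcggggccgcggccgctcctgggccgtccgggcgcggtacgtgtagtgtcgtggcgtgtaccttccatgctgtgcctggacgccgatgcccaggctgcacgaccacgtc
Insig2: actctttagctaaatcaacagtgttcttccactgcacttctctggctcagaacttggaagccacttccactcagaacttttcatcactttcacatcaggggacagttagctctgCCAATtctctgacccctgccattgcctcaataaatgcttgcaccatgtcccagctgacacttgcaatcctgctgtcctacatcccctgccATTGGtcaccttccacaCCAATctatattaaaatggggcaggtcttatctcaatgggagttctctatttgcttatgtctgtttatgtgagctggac
Srebf2: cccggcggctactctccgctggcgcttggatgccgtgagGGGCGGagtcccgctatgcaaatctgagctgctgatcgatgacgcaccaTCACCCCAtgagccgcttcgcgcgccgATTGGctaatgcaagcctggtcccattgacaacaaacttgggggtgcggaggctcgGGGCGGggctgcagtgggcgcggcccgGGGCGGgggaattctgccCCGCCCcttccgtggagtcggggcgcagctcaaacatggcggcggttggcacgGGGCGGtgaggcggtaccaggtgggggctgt

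The element TCACNCCAC, where N is any base, was found on either strand in 1.24% of all 32851 RefSeq windows and among the members in 1 of 30, that of Hmgcs1, at base 114 of the window. Its first 8 letters alone, TCACNCCA, were found in 4.36% of all windows and in 3 of 30 member windows, those of Msmo1 (base 74), Hmgcs1 and Srebf2 (base 89). The NF-Y box CCAAT lay in 37.4% of all windows and in 20 of 30 member windows, and the Sp1 box GGGCGG in 35.7% and 24 of 30. The Hmgcs1 window held 4 NF-Y boxes, that of Msmo1 3, and that of Idi1 2, and the Insig1 window held 1 NF-Y box and 3 Sp1 boxes. The Insig2 window shown held 3 NF-Y boxes and 0 Sp1 boxes, whereas each of the other 2 Insig2 windows held 1 Sp1 box and 0 NF-Y boxes. These are letter matches in a short window, chosen with the array values known, and are a description of the sequence only.

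Levels below are log2 of the processed signal of a gene's probe relative to the 75th percentile of its array, and each difference is L1-Tg minus WT on that log2 scale. The 75th percentile intensities of the 6 arrays lay between 296 and 378, 53.1% to 59.2% of spots passed as well above background, and saturation was marked on 0 spots. All arrays were on 1 slide, with the WT pools in one row and the L1-Tg pools in the other, so slide row and genotype cannot be told apart. Correlations over all genes were 0.985 to 0.994 within a group and 0.979 to 0.992 between groups. The probe for mouse Npc1l1 is not one for the human transgene and did not pass the filter on dim probes, so it gives no check of the genotype. A list of 7 hepatocyte markers summed to 5096 to 6237 times the 75th percentile in L1-Tg and 5662 to 6203 in WT pools. The 4 tested genes of a list of 6 pancreas genes summed to 79.2 in L1-Tg replicate 2. They summed to 11.3 in the lowest L1-Tg pool and to 10.3 to 11.8 in the WT pools. Brighter genes dominate these sums. Cela2a, named after its values were seen, was higher in every L1-Tg pool than in every WT pool. It was at -2.19 on L1-Tg replicate 1 and 0.25 on L1-Tg replicate 3, against -3.92 to -2.97 in WT. The other tested pancreas genes did not share the rise on L1-Tg replicate 3. Ctrb1 and Cel were lowest of the 6 arrays there, and Amy2a5 (2.96) lay within its WT range of 2.94 to 3.22. Kupffer cell markers (6 genes) summed to 105 to 128 in L1-Tg and 60.6 to 124 in WT pools, with WT replicate 1 the lowest for 6 of 6 genes. In such whole-liver pools, fewer cells of a type and less RNA per cell cannot be told apart.

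No gene of the pathway passed the test between the genotypes. In limma, 0 of 28 members passed an adjusted p of 0.05, against 0.130% of all genes tested (29 genes, 27 of them higher in L1-Tg). At an unadjusted p under 0.05 there was 1 member, Tm7sf2, or 3.57% of the list, against 8.88% of all genes. The 3 pools of each group did not overlap for 1 member, again Tm7sf2, against 15.9% of all genes. By the difference index used in the study, (M1-M2)/(SD1+SD2) on linear signals with a modulus above 0.7, 1 member passed, against 26.5% of all genes. The members split into 16 higher and 12 lower in L1-Tg, or 42.9% lower against 57.1% of all genes. With scaling to the array median, 6 were lower and 22 higher, and that scaling moved the median difference of all genes from -0.03 to 0.08. The median difference of the members was 0.02, and the smallest adjusted p in limma was 0.514. The 95% confidence interval lay within 1 log2 unit of 0 for 14 members and within 0.5 for 8, so for the other 14 a difference of 1 log2 unit in at least one direction could not be told from 0 with these arrays.

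**Figure D1:**
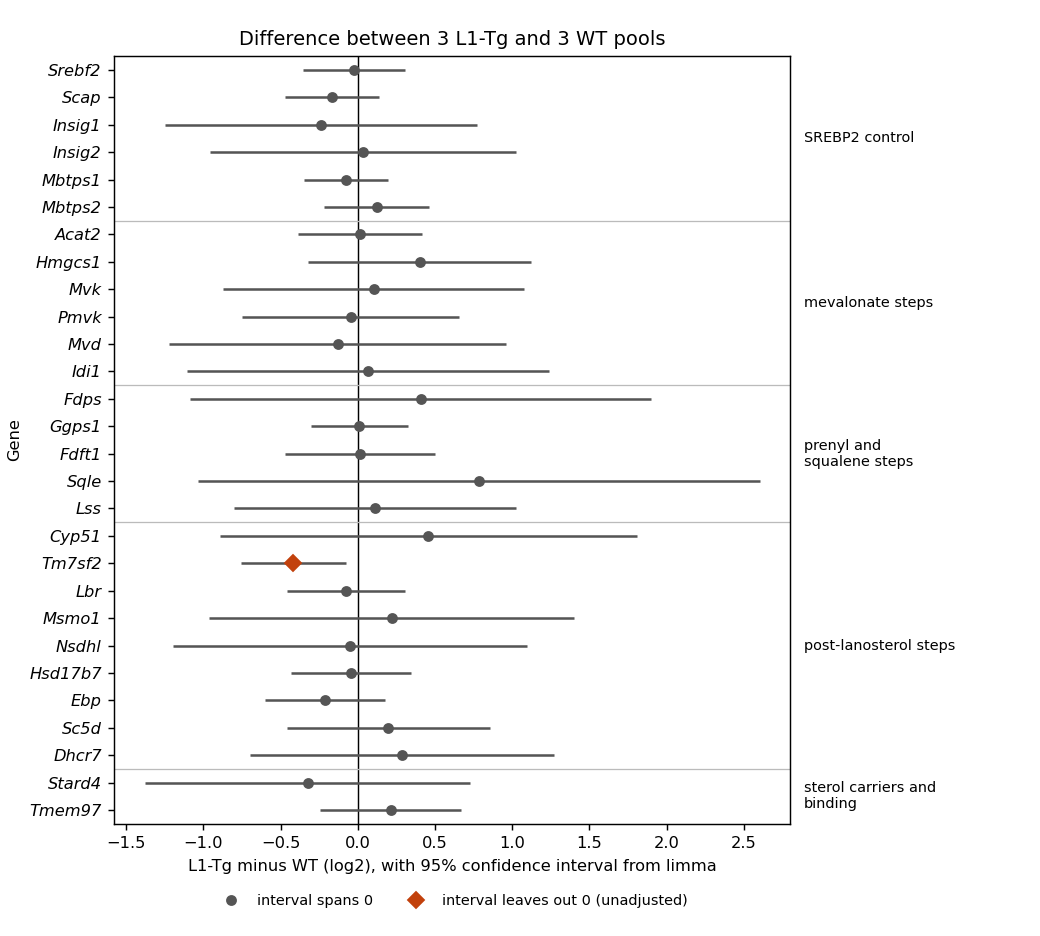
Difference between L1-Tg and WT (log2, horizontal axis) for each of the 28 genes (vertical axis, in pathway order), with points for the limma estimate over 3 against 3 pools and bars for its 95% confidence interval. The Tm7sf2 interval, -0.76 to -0.08, is the 1 that leaves out 0 before adjustment, and the widest interval is that of Sqle, -1.04 to 2.60.

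Among the genes of SREBP2 control, the escort and the proteases were nearly level across all pools, as was the factor on the brighter of its 2 probes, while the pair of INSIG inhibitors ranged widely and deviated oppositely on 5 of 6 arrays. Srebf2, which encodes SREBP2, was at -1.36, -1.37 and -1.0 on L1-Tg replicates 1, 2 and 3 and at -1.16, -1.15 and -1.35 on WT replicates 1, 2 and 3. The groups overlapped, the difference was -0.02 (SE 0.14), and its 95% interval ran from -0.35 to 0.31. The other Srebf2 probe, also well above background on 6 arrays, ranged more widely, from -2.63 on WT replicate 1 to -1.79 on WT replicate 3. Scap, the escort, was at 5.04, 5.28 and 5.18 in L1-Tg and at 5.53, 5.21 and 5.25 in WT, a difference of -0.17 with an interval of -0.47 to 0.14. Mbtps1 and Mbtps2, the site-1 and site-2 proteases of the Golgi, differed by -0.08 and 0.12, and their ranges over the 6 arrays were 1.26-fold and 1.35-fold. Beside these stood Insig1, itself a known SREBP target. It was at 0.35, 0.83 and 1.67 in L1-Tg and at 1.80, 1.18 and 0.60 in WT. The high pools were thus L1-Tg replicate 3 and WT replicate 1, and the range was 2.73-fold, while the difference between genotypes was -0.24 (SE 0.42). Insig2, the isoform whose liver transcript is known to be lowered by insulin, was at 4.31, 4.49 and 3.44 in L1-Tg and at 3.26, 4.41 and 4.46 in WT. Its low pools were the 2 in which Insig1 was high, and the other 4 lay between 4.31 and 4.49. The genotype difference was 0.03 (SE 0.41, 95% interval -0.96 to 1.03). A second Insig2 probe differed by -0.01 and had the same lowest array, and after centring the 2 probes were at most 0.11 apart on any array.

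**Figure D2:**
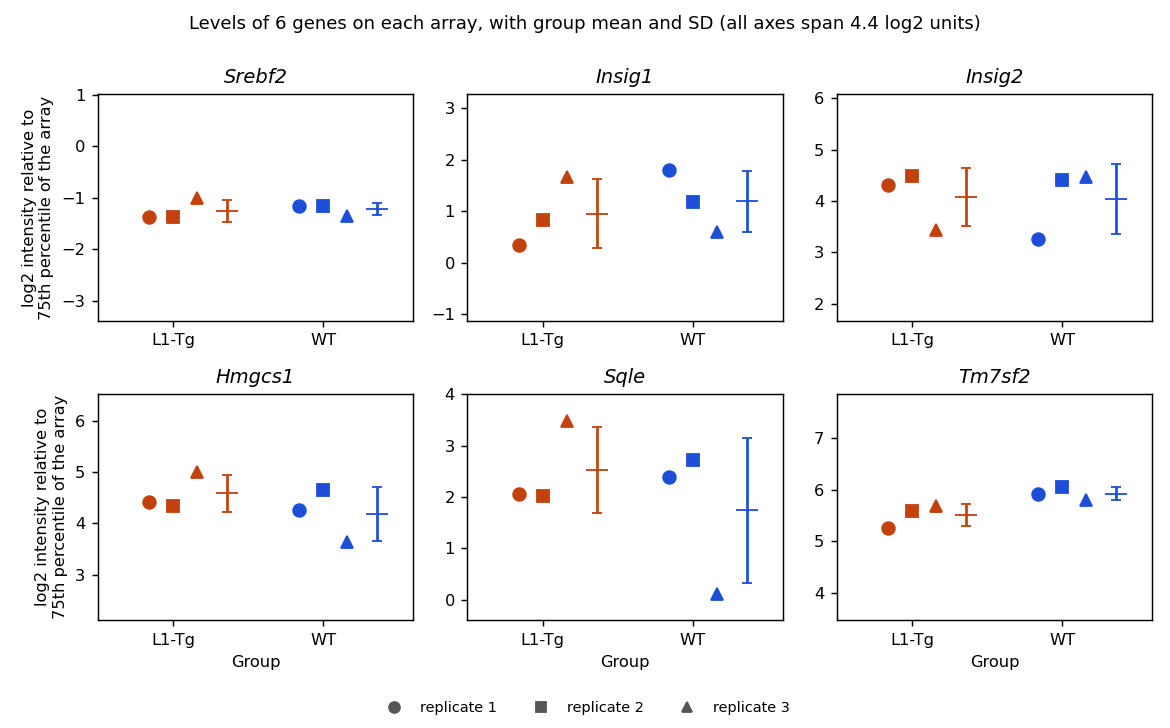
Levels (vertical axis, log2 relative to the 75th percentile of the array) of Srebf2, Insig1, Insig2, Hmgcs1, Sqle and Tm7sf2 on each array, by group, with marker shapes for the replicate and bars for mean and SD over 3 pools. The labels state no pairing of pools by replicate number. The Srebf2 probe plotted spans 0.37 over the 6 arrays and Sqle 3.36, and Tm7sf2 is the 1 gene here whose groups do not overlap.

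The mevalonate steps turn acetyl-CoA into the isoprene units. Acat2, the thiolase that joins 2 acetyl-CoA, was at 5.06, 5.34 and 5.28 in L1-Tg and 5.38, 5.37 and 4.88 in WT, and its range was 1.42-fold. Its neighbour and close relative Acat3 may share signal with it, which was not tested. Hmgcs1, HMG-CoA synthase, was at 4.42, 4.34 and 5.0 in L1-Tg and at 4.26, 4.66 and 3.63 in WT. The highest pool was L1-Tg replicate 3 and the lowest WT replicate 3, the groups overlapped, and the difference of 0.40 (SE 0.30) had a 95% interval of -0.32 to 1.12 and an adjusted p of 0.677 in limma. The kinases that follow, Mvk and Pmvk, differed by 0.10 and -0.05, with intervals of -0.87 to 1.08 and -0.75 to 0.66. Mvd, the decarboxylase, was at -1.0, -0.97 and -0.03 in L1-Tg and 0.01, -0.16 and -1.45 in WT. Idi1, which isomerises isopentenyl diphosphate, was at 3.36, 3.42 and 4.22 in L1-Tg and 4.13, 4.15 and 2.53 in WT. For Mvd and Idi1 alike, L1-Tg replicate 3 sat with WT replicates 1 and 2, and the other 2 L1-Tg pools sat between these and WT replicate 3. Their genotype differences were -0.13 and 0.07, with intervals reaching past 1 log2 unit on at least one side. All 6 genes of these steps were lowest on WT replicate 3.

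The prenyl and squalene steps held the genes that varied most. Fdps, farnesyl diphosphate synthase, was at 4.25, 4.54 and 5.80 in L1-Tg and at 5.26, 4.86 and 3.25 in WT, a 5.83-fold range. Sqle, squalene epoxidase, a rate-limiting enzyme of the sterol branch, was at 2.06, 2.03 and 3.48 in L1-Tg and at 2.38, 2.72 and 0.12 in WT, a 10.3-fold range. WT replicate 3 was the low extreme and L1-Tg replicate 3 the high one for both genes, with the other 4 pools between. The Sqle difference of 0.78 (SE 0.75), the largest among the members, carried an adjusted p of 0.739 in limma and fell to -0.03 without WT replicate 3. The Fdps difference of 0.41 (SE 0.62) turned to -0.19 without that pool. Fdft1, squalene synthase, varied less, from 2.65 on WT replicate 3 to 3.31 on L1-Tg replicate 3, with a difference of 0.02. Lss, which closes squalene epoxide into lanosterol, ranged 2.35-fold, again from WT replicate 3 to L1-Tg replicate 3, with a difference of 0.11. Ggps1, which makes geranylgeranyl diphosphate and so leaves the sterol route, stood apart from these. It was at 0.02, 0.00 and 0.33 in L1-Tg and at 0.12, -0.03 and 0.22 in WT, a range of 1.28-fold, and WT replicate 3 was not its lowest pool.

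After lanosterol, the gene whose groups did not overlap was not among those that varied most. Tm7sf2, a sterol reductase that acts after the lanosterol demethylase, was at 5.26, 5.59 and 5.67 in L1-Tg and at 5.91, 6.06 and 5.80 in WT. Every L1-Tg pool was below every WT pool. The difference was -0.42 (SE 0.14, 95% interval -0.76 to -0.08), with an unadjusted p of 0.024 and an adjusted p of 0.514 in limma, so it did not pass over all genes. A second probe gave -0.42 as well, and the difference stayed between -0.50 and -0.29 when each array in turn was left out. An exact permutation test of 3 against 3 pools cannot go below 0.1. Lbr, the lamin B receptor, which can perform the same reduction, was at -0.39, -0.26 and -0.06 in L1-Tg and at 0.09, -0.15 and -0.41 in WT, and its difference was -0.08 with an interval of -0.46 to 0.31. Cyp51, the lanosterol demethylase, was at -0.31, -0.32 and 0.51 in L1-Tg and at 0.18, 0.11 and -1.77 in WT. Its 4.89-fold range again ran from WT replicate 3 to L1-Tg replicate 3, and its difference was 0.46 (SE 0.56). Msmo1, Nsdhl and Hsd17b7 remove the methyl groups of the ring in turn. Msmo1 was at 4.30, 4.21 and 5.28 in L1-Tg and at 4.78, 4.97 and 3.37 in WT. Nsdhl was at -0.09, 0.15 and 0.96 in L1-Tg and at 0.90, 0.88 and -0.61 in WT. Hsd17b7 was the flat gene of this trio, with a 1.42-fold range and a difference of -0.04, against 0.22 for Msmo1 and -0.05 for Nsdhl. The last steps were taken by Ebp, the isomerase, at a difference of -0.21 (interval -0.60 to 0.18), Sc5d, the desaturase, at 0.20 (-0.46 to 0.86), and Dhcr7, a reductase of the final step, at 0.29 (-0.70 to 1.27).

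The sterol carriers and binders completed the list. Stard4, which moves cholesterol between membranes, was at 2.54, 2.87 and 3.33 in L1-Tg and at 3.93, 3.49 and 2.29 in WT. On this probe the groups overlapped because of WT replicate 3. The difference was -0.32 (SE 0.44, adjusted p of 0.814 in limma) with that pool and -0.80 (adjusted p of 0.346) without it. On the other Stard4 probe, L1-Tg replicate 3 (-0.56) also lay above WT replicate 2 (-0.68), so the groups overlapped without WT replicate 3 as well. Tmem97, the sigma-2 receptor, known to bind NPC1, differed by 0.21 with an interval of -0.24 to 0.67.

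Most members moved together from pool to pool within each genotype. WT replicate 3 was the lowest of the 6 arrays for 18 of 28 members, against 14.0% of all genes, and L1-Tg replicate 3 was the highest for 15 of 28, against 14.2%. Both held for 13 of 28 members, against 3.33% of all genes. These arrays were singled out after the values were seen, so the counts are a description. The median deviation of the members from their own means was -0.20, -0.09 and 0.44 on L1-Tg replicates 1, 2 and 3 and 0.26, 0.18 and -0.40 on WT replicates 1, 2 and 3. Over all genes the same medians lay between -0.03 and 0.04. The members above their own mean numbered 2, 5 and 25 in the L1-Tg pools and 25, 21 and 4 in the WT pools. Pair by pair within a group, L1-Tg replicate 3 was above L1-Tg replicate 1 for 27 of 28 members (median 0.66) and above L1-Tg replicate 2 for 24 of 28 (median 0.49). WT replicate 1 was above WT replicate 3 for 25 of 28 (median 0.60) and WT replicate 2 was above it for 24 of 28 (median 0.43). In these 4 pairs between 43.8% and 56.7% of all genes went the same way. From WT replicate 3 to WT replicate 2 the rise was 6.05-fold for Sqle, 3.70-fold for Cyp51, 3.07-fold for Idi1, 3.04-fold for Fdps and 3.03-fold for Msmo1. Insig2 ran against the rest, being the 1 member lower on L1-Tg replicate 3 than on L1-Tg replicate 1.

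**Figure D3:**
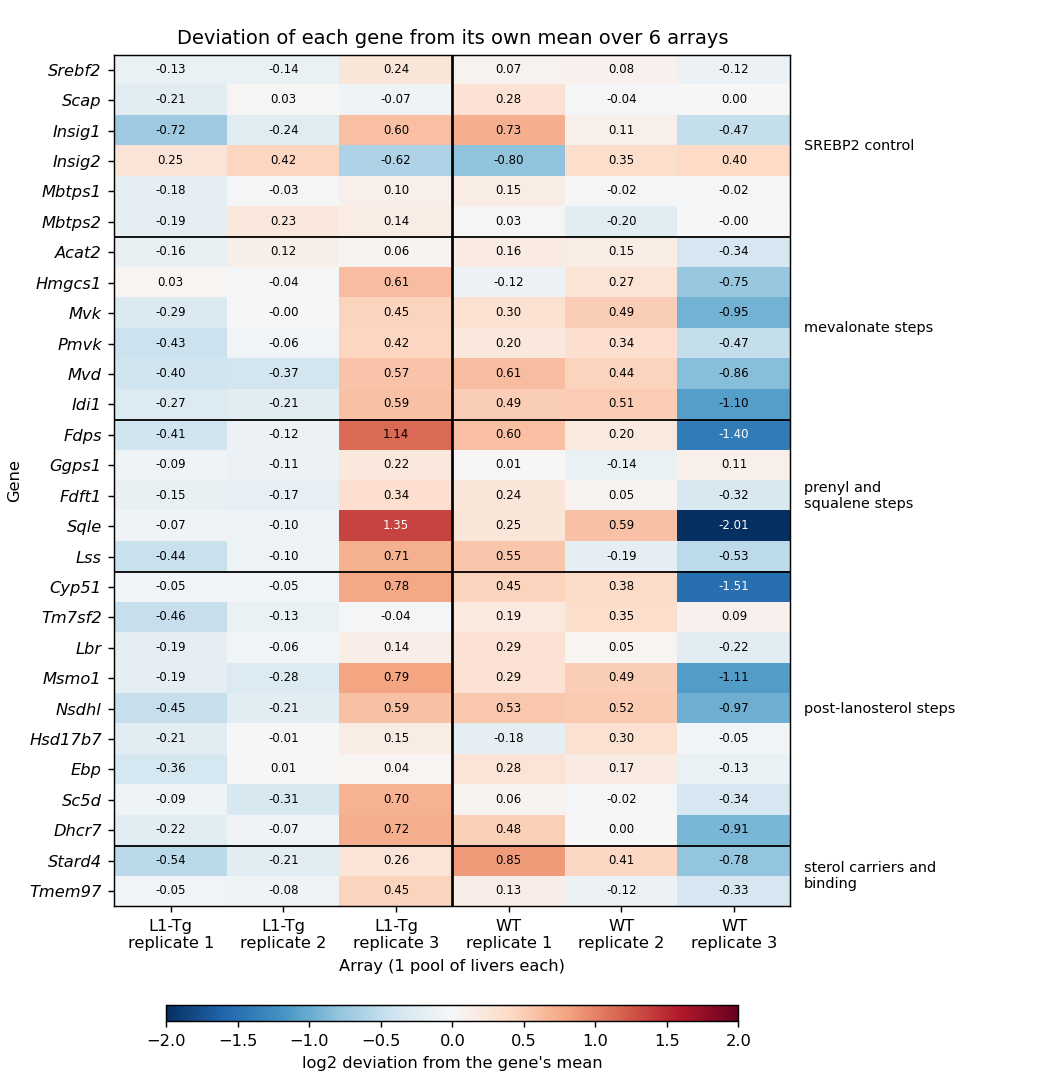
Deviation of each of the 28 genes (vertical axis, in pathway order) from its own mean over 6 arrays, as log2 values printed in the cells and coloured from blue (below the mean) to red (above), for each array (horizontal axis). WT replicate 3 is blue for most enzymes, down to -2.01 for Sqle, L1-Tg replicate 3 is red, up to 1.35 for Sqle, and the Insig1 and Insig2 rows have opposite colours on 5 of 6 arrays, all but WT replicate 2.

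The spread between pools of a group was correspondingly large. The median within-group SD of the members was 0.44 log2 units, against 0.17 over all genes tested, and 25 of 28 members were above the median of all genes. The SD of 13 members was above the 90th percentile of all genes, which was 0.45. Sqle had an SD of 1.16, Fdps 0.95, Cyp51 0.85, Msmo1 0.75, Idi1 0.74 and Nsdhl 0.72, and between 0.748% (Sqle) and 2.87% (Nsdhl) of all genes had a larger one. The steady members were Mbtps1 (0.12), Scap (0.15), Ggps1 (0.16), Srebf2 on the probe used (0.17), Tm7sf2 (0.18) and Mbtps2 (0.18). With no filter on dim probes, which adds noisy genes to the comparison, 3 members were above the 90th percentile.

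**Figure D4:**
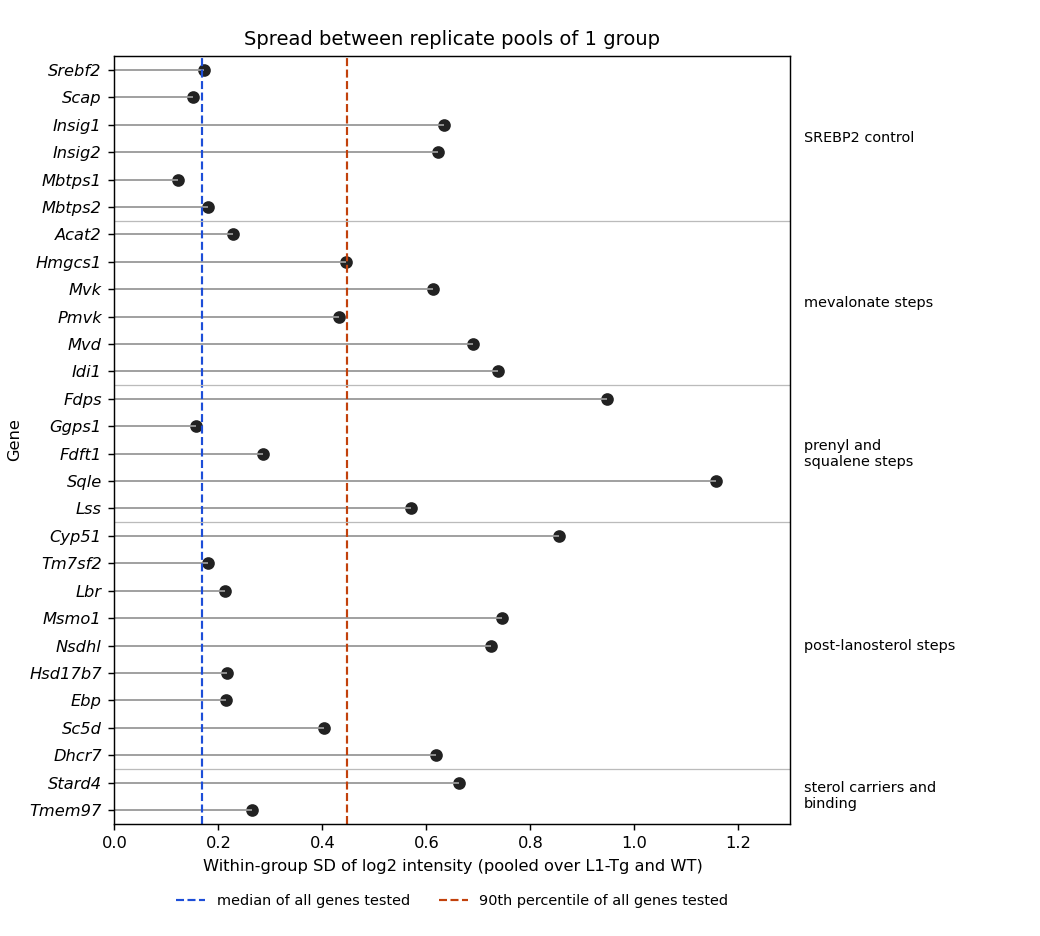
Within-group SD of the log2 level (horizontal axis, pooled over the L1-Tg and WT groups of 3 pools each) for each of the 28 genes (vertical axis). Dashed lines mark the median (0.17) and the 90th percentile (0.45) of all genes tested, and Sqle reaches 1.16 while Scap, Mbtps1 and Ggps1 lie below the median.

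For most members the direction of the genotype difference rested on single pools. Scap, Mbtps1, Mbtps2, Hmgcs1, Tm7sf2, Ebp and Tmem97 kept their sign whichever array was left out, though Mbtps1 came as near to 0 as -0.0024. Without WT replicate 3, 22 of 28 members were lower in L1-Tg and 6 higher, 2 had an unadjusted p under 0.05, against 12.6% of all genes in that fit, 4 had groups that did not overlap, against 32.0%, and 7 passed the difference index, against 38.6%. The smallest adjusted p in limma was then 0.343, that of Tm7sf2. Without L1-Tg replicate 3, 22 of 28 were again lower. Without L1-Tg replicate 1 or WT replicate 1 the split turned the other way, with 7 and 6 lower. In each of these fits 0 members passed an adjusted p of 0.05. The cause of the low values in WT replicate 3 was not tested.

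**Figure D5:**
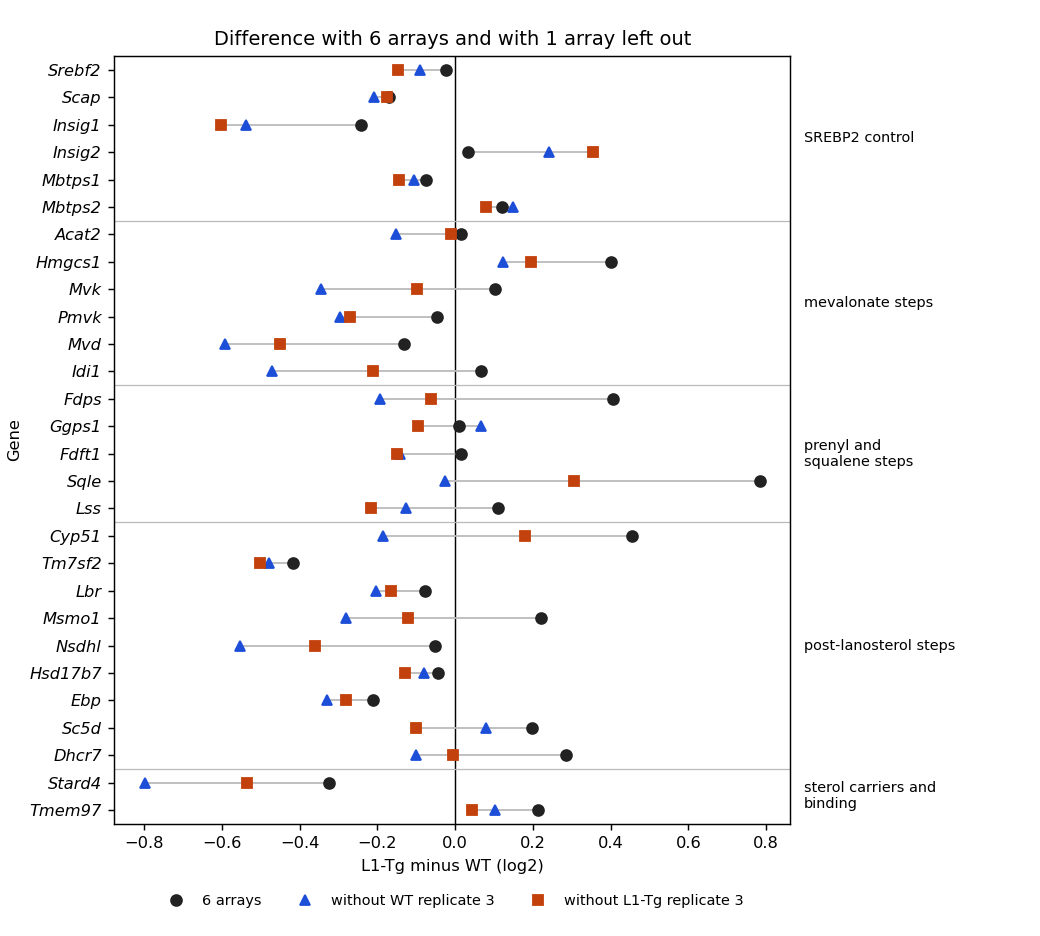
Difference between L1-Tg and WT (log2, horizontal axis) for each gene (vertical axis) with 6 arrays (circles), without WT replicate 3 (triangles) and without L1-Tg replicate 3 (squares). Sqle moves from 0.78 to -0.03 and Idi1 from 0.07 to -0.47 without WT replicate 3, while Tm7sf2 stays between -0.50 and -0.42 in the 3 settings.

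Genes beside the pathway were read from lists written by function. Acetyl-CoA supply (Acly, Acss2, Aacs and Slc25a1, 4 of 4 tested) had 0 genes called, and its median deviation on the arrays was -0.22, -0.05 and 0.41 in L1-Tg and 0.31, 0.05 and -0.31 in WT, high and low on the same pools as the sterol enzymes. Aacs, which makes acetoacetyl-CoA in the cytosol and is named after its values were seen, went from 1.01 on WT replicate 3 to 3.40 on WT replicate 1. The SREBP1 lipogenic targets (12 of 13 tested) had median deviations of -0.47, -0.08 and 0.49 in L1-Tg and 0.60, -0.22 and -0.35 in WT. Groups did not overlap for 16.7% of them, against 15.9% of all genes. In limma 0 were called and 2 had an unadjusted p under 0.05, or 16.7% against 8.88% of all genes. Me1, malic enzyme, a source of NADPH for lipogenesis, was at 4.35, 4.53 and 4.88 in L1-Tg and at 3.80, 3.94 and 3.97 in WT. Its groups did not overlap, and the difference was 0.68 (SE 0.15) with an adjusted p of 0.348 in limma. Elovl5, a fatty acid elongase, was the other, at -0.55 (adjusted p of 0.526 in limma). Of the isoprenoid branch, which makes dolichol, coenzyme Q tails and prenylated proteins from the same precursors, 12 of 13 genes were tested and 0 called. Its median deviations lay between -0.03 and 0.03 on all 6 arrays. The SREBP regulators, among them the ubiquitin ligases and coat proteins that act on SCAP and INSIG, had 12 of 13 tested and 0 called, with differences from -0.30 to 0.18. The oxysterol makers had 3 of 4 tested and 0 called.

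Feeding and clock genes were set beside these values because they are known to move with the same system. The feeding-state list, of genes that fasting raises, had 11 of 11 tested and 0 called. In L1-Tg 9 were lower, or 81.8% against 57.1% of all genes, with a median difference of -0.40 (all genes -0.03). Pck1, of gluconeogenesis, was at 8.11, 8.61 and 8.19 in L1-Tg and at 8.69, 8.69 and 8.91 in WT, a difference of -0.46 with an adjusted p of 0.517 in limma. Every L1-Tg pool was below every WT pool for Pck1 and for Cpt1a, the gatekeeper of fatty acid oxidation, which differed by -0.22. Groups did not overlap for 18.2% of this list, near the 15.9% of all genes. By array, the median deviation of the list was -0.29, 0.10 and -0.34 in L1-Tg and 0.06, 0.16 and 0.45 in WT, lowest on L1-Tg replicate 3 and highest on WT replicate 3, the arrays on which the members were highest and lowest. On L1-Tg replicate 1 and on WT replicates 1 and 2 the list and the members deviated the same way. Of the clock list, 13 of 14 genes were tested and 0 were called. In limma 4 had an unadjusted p under 0.05, or 30.8% against 8.88% of all genes, all of them lower in L1-Tg. Per1 was at 2.76, 2.62 and 2.93 in L1-Tg and at 3.36, 3.31 and 3.60 in WT, a difference of -0.65 with an adjusted p of 0.292 in limma. Arntl, named after its values were seen, was at -1.49, -0.74 and -2.35 in L1-Tg and at -3.32, -2.56 and -1.07 in WT, so within each group its lowest pool was that of Insig2. Among the other tested clock genes, Nr1d1 shared both of these lowest pools and the rest did not. Some markers of other cell types also differed most on these arrays, and are named after their values were seen. Lyve1, of sinusoidal endothelium, was lowest on L1-Tg replicate 3 and highest on WT replicate 3, a 3.07-fold range. Within their groups, Stab2 and Pecam1 were also lowest on L1-Tg replicate 3 and highest on WT replicate 3. Clec4g was instead highest of the 6 arrays on L1-Tg replicate 3 (5.19), and Kdr spanned only 1.21-fold. The endothelial list (5 of 5 tested) summed to 96.4 to 98.4 times the 75th percentile in L1-Tg and 91.0 to 99.4 in WT. The cholangiocyte keratins Krt7 and Krt19 were highest within their groups on L1-Tg replicate 3 and WT replicate 1, with ranges of 3.30-fold and 3.12-fold. Not every gene of their list followed. Sox9 was highest in L1-Tg on replicate 2 (-1.39), and Spp1 was highest in WT on replicate 3 (-0.36). The list (4 of 5 tested) summed to 1.32 to 2.02 in L1-Tg and 1.09 to 1.55 in WT. The stellate cell list (6 of 6 tested) summed to 82.1 to 96.8 and 82.8 to 115, and the lymphocyte list (6 of 6 tested) to 13.5 to 14.97 and 15.3 to 16.6. The part of feeding state, hour of sampling, pool composition or the signals of these cell types, Kupffer cells and pancreas in the pool-to-pool pattern of the sterol genes was not tested.

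A second measured probe existed for 10 members. It was lowest on the same array for 8 and highest on the same array for 5. The sign of the genotype difference was opposite for 3, Insig2, Pmvk and Srebf2, each with a difference within 0.18 of 0 on either probe. The Srebf2 probes were up to 0.54 apart on 1 array after centring, and the next largest gap, 0.23, was that of Stard4.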

How the data were processed

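Liver RNA of 3 L1-Tg and 3 WT pools was measured on 1-colour Cy3 arrays of 62976 spots. The authors read the scans with Agilent Feature Extraction (version 10.10.1.1 per the file headers). They deposited for each spot a linear, background-subtracted intensity that is not scaled between arrays. Marks for spots well above background, saturated or non-uniform are deposited as scores of 0 or 1. A further deposited table holds the same intensities times an array-wide factor that the sources used here do not name. Control and non-uniform spots were left out, 432 repeated probes averaged, and log2 values taken relative to each array's 75th percentile. Genes were represented by their brightest probe among the 29448 that were well above background throughout L1-Tg or WT. limma 3.58.1 in R 4.3.3 (lmFit, eBayes, two-sided, Benjamini-Hochberg over 22356 genes) was the test, fitted without a block, and was checked on simulated data. The difference index followed the methods. The rule for named genes took all members and the 3 of each other list with the smallest p; the text names some of the latter, and genes outside the rule are marked as such. Members, lists and motifs were chosen with earlier results of these data known. p-values measure the spread between pools. Alternatives covered scaling, background, filters, probes, single arrays and a replicate block. Python used pandas and matplotlib.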

Additional observations from a re-analysis of the deposited data

How the results depend on the processing

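Under every alternative tried, 0 members passed an adjusted p of 0.05 in limma, and the lowest adjusted p of any member was 0.343, without WT replicate 3. The 28 members kept their sign under the filter on all 6 arrays, with no filter and with non-uniform spots kept. Members near 0 turned sign elsewhere. Scaling to the array median, no scaling and the deposited intensities move each member by 1 constant (0.11, 0.056 and 0.049). Those turns are thus of that shift and not of single genes. Apart from the mean of probes, given below, the cause of the other turns was not tested. With quantile normalization Srebf2 was at 0.0087. With scaling to the array median, Srebf2 was at 0.085, Mbtps1 at 0.033, Pmvk at 0.062, Lbr at 0.032, Nsdhl at 0.056 and Hsd17b7 at 0.066, 6 members were lower and 0 had an unadjusted p under 0.05. With no scaling, Srebf2 was at 0.032, Pmvk at 0.0091, Nsdhl at 0.0031 and Hsd17b7 at 0.013, and 2 members passed the difference index (17.1% of all genes). With a normexp background (offset 50), Srebf2 was at 0.016 and Ggps1 at -0.019, 2 members had groups that did not overlap (16.1% of all genes) and 2 passed the index (26.6%). On the deposited normalized intensities Srebf2 was at 0.026, Pmvk at 0.0027 and Hsd17b7 at 0.0062. With the mean of probes Srebf2 was at 0.077, the mean of -0.023 on the probe used and 0.177 on the other.

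Alternatives for the pool-to-pool counts were chosen after seeing the data: 15 to 18 members were lowest on WT replicate 3 and 15 to 22 highest on L1-Tg replicate 3, and 3 (no filter on dim probes) to 17 were above the 90th percentile of the SD.

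Leaving out each array in turn, the members with an unadjusted p under 0.05 numbered 0 to 2 (5.06% to 12.6% of all genes), those lower in L1-Tg 6 to 22, those without overlap 2 to 4 (21.4% to 32.0%), those past the index 2 to 7 (28.3% to 38.6%), and the median of the members ran from -0.17 to 0.14. Signs turned for Srebf2 (-0.15 to 0.040), Insig1 (-0.60 to 0.06), Insig2 (-0.36 to 0.35), Acat2 (-0.15 to 0.10), Mvk (-0.34 to 0.37), Pmvk (-0.30 to 0.16), Mvd (-0.59 to 0.14), Idi1 (-0.47 to 0.34), Fdps (-0.19 to 0.81), Ggps1 (-0.096 to 0.068), Fdft1 (-0.15 to 0.14), Sqle (-0.026 to 1.27), Lss (-0.22 to 0.41), Cyp51 (-0.19 to 0.79), Lbr (-0.20 to 0.048), Msmo1 (-0.28 to 0.52), Nsdhl (-0.55 to 0.20), Hsd17b7 (-0.14 to 0.096), Sc5d (-0.10 to 0.40), Dhcr7 (-0.10 to 0.60) and Stard4 (-0.80 to 0.021), and, outside the pathway, for Acly (-0.39 to 0.081) and Cyp27a1 (-0.10 to 0.18).

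Deviations of same-numbered pools from their group means correlated at -0.16, 0.11 and 0.02 over all genes. The labels state no pairing by replicate number, and such correlations with 3 pools a group cannot exclude it. With the replicate number as a block, 0 members were called, 12 were lower as before, and 11 genes of all were called in place of 29. Without limma's moderated variances 0 genes were called and 1844 had an unadjusted p under 0.05. With 3 pools a group, the array number sets the precision, and dim probes left 5 genes of the neighbouring lists and Npc1l1 untested.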
